A study of Mus musculus with 18 samples.

Results

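C2C12 is a line of mouse myoblasts able to form multinucleated myotubes. In it, 77 genes were much higher in control myotubes than before differentiation and than in the myotubes of a pair of edited clones. These 77 genes, of 55450 gene IDs counted, were selected by 4 conditions on group means of CPM (a gene's count per 1000000 counts of its library), with 0.1 CPM added to each mean. The control myotube mean had to be at least 5 CPM, at least 4 times the control myoblast mean, and at least 8 times the myotube mean of each clone. A total of 10700 genes met the level and 433 of them the induction as well, and of those 433 genes 93 also met the limit against the clone labelled overexpressor and 89 the limit against the clone labelled knockout. Because these comparisons chose the members, control myotubes against control myoblasts and against the myotubes of either clone are described below without a test, as are the marker genes of other lists in the same comparison.

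Polyadenylated RNA was sequenced from 6 groups, each with 3 libraries called A, B and C. The control (label px) was a population that received the pX458 vector alone, without guides, and was harvested either before differentiation, as myoblasts, or at day 3 of it, as myotubes. The line labelled Dlk1-Dio3 overexpressor (2-4) and the line labelled Dlk1-Dio3 knockout (2-7) were collected at the same stages, and each is 1 clone, obtained by limiting dilution after CRISPR-Cas9 cutting with a pair of guides at the promoter of Meg3, a long noncoding RNA gene of the imprinted Dlk1-Dio3 locus. All 3 lines had been transfected and sorted for EGFP. Genotype and clone cannot be told apart. Nothing says that the replicates came from separate cultures, so p-values measure the spread between these samples, which may be technical. The fit shared its estimate of that spread across all 6 groups. Between replicates, however, the coefficient of variation ran from 4.27% in knockout myoblasts to 19.36% in overexpressor myotubes. Adjusted p-values that involve overexpressor myotubes may therefore be too small. Library totals ran from 41544358 to 79140702 counts, and 3 counts, taken as the floor of detection, were 0.0379 to 0.0722 CPM. Meg3 had 0 counts in every control library and in every library labelled knockout, so it does not separate those lines, and 5222 to 7763 counts in the libraries labelled overexpressor. The 16 myotube markers, which included Myog, Myh3 and Ckm, summed to 22388 to 22630 CPM in control myotubes, 43057 to 47335 CPM in overexpressor myotubes and 56045 to 63771 CPM in knockout myotubes. In the libraries labelled knockout myoblasts they already summed to 18275 to 22388 CPM, against 1388 to 1676 CPM in control and 2700.3 to 3545 CPM in overexpressor myoblasts, and the part of this in the comparisons of knockout myoblasts was not tested. None of the 16 was a member, and 8 were at least 2-fold lower in control myotubes than in the myotubes of both clones. In RNA from whole cultures, fewer cells of a type and less RNA per cell cannot be told apart.

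Cultured myotubes are secretory cells as well as contractile ones. Their cultures lay down a matrix of fibrillin microfibrils, collagens and proteoglycans. The same cultures release growth factors such as insulin-like growth factor 1 that act on neighbouring cells. Which cells of a culture make these products was not measured here. When amino acids run short or unfolded protein gathers in the endoplasmic reticulum, cells use the integrated stress response, in which the transcription factor ATF4 switches on amino acid transporters, enzymes of serine, cysteine and one-carbon metabolism, and the regulators CHOP and TRIB3. The members were sorted by role after their values had been seen.

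All 77 members were protein coding and lay on 20 chromosomes. In control myotubes every library of every member was above all 15 other libraries. For control myoblasts and the clones' myotubes, the limits on the means largely set this in advance. The members together took 1.4949% of the counts in control myotubes, against 0.1466% in control myoblasts. Their summed level was 15592, 14633 and 14623 CPM in the control myotube libraries, with a mean of 1007.6 CPM in overexpressor and 683.8 CPM in knockout myotubes. Fbn1 alone carried 5361 CPM of this, and without it the means were 9588, 421.9 and 438.3 CPM. The median member was 16.2-fold higher in control myotubes than in control myoblasts (range 4.06 to 1036), 38.9-fold higher than in overexpressor myotubes (8.15 to 942) and 36.5-fold higher than in knockout myotubes (8.13 to 2645), each as a ratio of means with 0.1 CPM added. Replicates of control myotubes lay close together, with a median coefficient of variation over the members of 10.4%. Many members were at low levels elsewhere: 32 were under 1 CPM on average in control myoblasts, 48 in overexpressor myotubes and 47 in knockout myotubes. Fewer, 5, 5 and 11, were at or under 3 counts in every library of those groups.

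**Figure D1:**
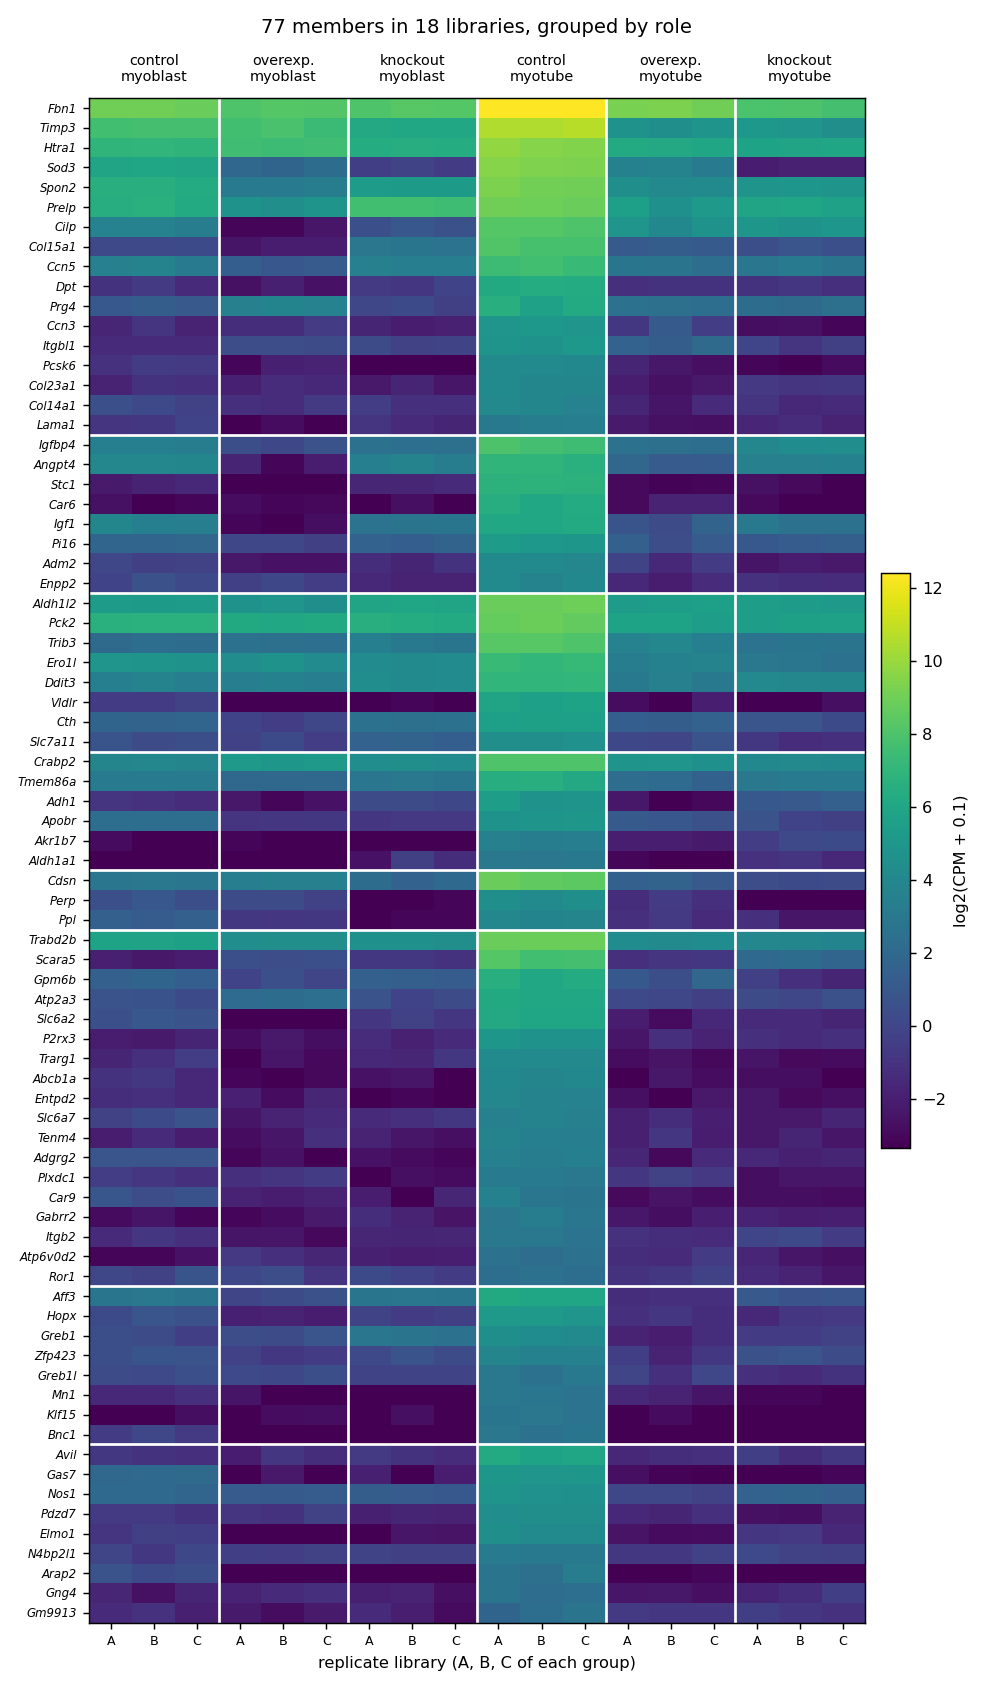
Level of each of the 77 members (rows, grouped by role) in each of the 18 libraries (columns), as log2(CPM + 0.1). The 3 control myotube columns are the brightest of every row, while the other 15 columns differ from gene to gene. The rule favoured this order against control myoblasts and the clones' myotubes.

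The largest role group was the extracellular matrix, with 17 members that summed to 10406 CPM in control myotubes, 792.2 CPM in overexpressor myotubes and 461.8 CPM in knockout myotubes, against 1098 CPM in control myoblasts. Fbn1 (chr2:125300594-125507993), which encodes fibrillin-1, the backbone of microfibrils, took the largest share of the group's counts. Fbn1 was at 521, 503 and 453 CPM in control myoblasts and 5453, 5276 and 5355 CPM in control myotubes. Fbn1 values in the clones were 270.3, 307 and 300.4 CPM in overexpressor myoblasts and 608, 627 and 522 CPM in overexpressor myotubes, with 273, 319.8 and 302 CPM in knockout myoblasts and 253, 264 and 219 CPM in knockout myotubes. Both clones were below the control already as myoblasts. Timp3, an inhibitor of matrix metalloproteinases bound to the matrix, differed from Fbn1 in the clones. Timp3 was at 202, 215 and 219 CPM in control myoblasts and 1480.4, 1491 and 1658 CPM in control myotubes. For Timp3, the clones had 199, 235 and 171 CPM in overexpressor myoblasts and 27.1, 22.4 and 28.1 CPM in overexpressor myotubes, with 71.6, 69.8 and 66.2 CPM in knockout myoblasts and 33.5, 29.4 and 21.6 CPM in knockout myotubes. Its level went down, not up, when either clone formed myotubes.

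Collagens were represented by Col14a1, Col15a1 and Col23a1. Col15a1 (chr4:47208161-47313167) encodes a basement membrane collagen that links to fibrils. Col15a1 was at 0.995, 1.03 and 1.04 CPM in control myoblasts and 277, 226 and 227 CPM in control myotubes. The clones' Col15a1 levels were 0.0822, 0.137 and 0.144 CPM in overexpressor myoblasts and 2.09, 2.39 and 2.1 CPM in overexpressor myotubes, with 7.46, 6.97 and 6.27 CPM in knockout myoblasts and 1.26, 1.64 and 1.31 CPM in knockout myotubes. In control it was near 1 CPM before differentiation, and the clones went opposite ways, up in the overexpressor and down in the knockout. Dpt encodes dermatopontin, a small matrix protein that binds decorin. Dpt was at 0.386, 0.536 and 0.283 CPM in control myoblasts and 76.7, 84.8 and 80.2 CPM in control myotubes. Dpt in the clones was at 0.0616, 0.159 and 0.0722 CPM in overexpressor myoblasts and 0.328, 0.404 and 0.4 CPM in overexpressor myotubes, with 0.549, 0.456 and 0.804 CPM in knockout myoblasts and 0.393, 0.473 and 0.341 CPM in knockout myotubes. Every library outside the control myotubes held under 1 CPM of it. Cilp, a cartilage matrix protein known to restrain TGF-beta, was scarce in the myoblasts of both clones. Cilp was at 12.6, 12.6 and 9.79 CPM in control myoblasts and 313, 307 and 272 CPM in control myotubes. Cilp values in the clones were 0.0205, 0.0228 and 0.0963 CPM in overexpressor myoblasts and 29, 16.4 and 25.9 CPM in overexpressor myotubes, with 1.33, 1.86 and 1.37 CPM in knockout myoblasts and 32, 26.5 and 30.1 CPM in knockout myotubes. The clones' myotubes passed the level of control myoblasts and stayed far below control myotubes. Sod3 encodes the superoxide dismutase that is secreted and binds to the matrix. Sod3 was at 58.6, 63.3 and 57.9 CPM in control myoblasts and 743, 665 and 642 CPM in control myotubes. For Sod3, the clones had 3.78, 3.3 and 4.55 CPM in overexpressor myoblasts and 12, 13.1 and 9.42 CPM in overexpressor myotubes, with 0.641, 0.835 and 0.561 CPM in knockout myoblasts and 0.131, 0.173 and 0.171 CPM in knockout myotubes. Every overexpressor library was above every knockout library. Among the other matrix members, Htra1, Spon2 and Prelp were detected in every group, whereas Lama1, Pcsk6 and Col23a1 were under 1 CPM in every group other than control myotubes.

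Of the 8 other secreted proteins, Stc1 and Igf1 were on the list of hormones and growth factors. Stc1 (chr14:69029238-69041804) encodes stanniocalcin 1, a glycoprotein hormone linked to calcium and phosphate transport. Stc1 was at 0.122, 0.185 and 0.236 CPM in control myoblasts and 111, 114 and 110.2 CPM in control myotubes. The clones' Stc1 levels were 0, 0 and 0 CPM in overexpressor myoblasts and 0.0298, 0.0126 and 0.0138 CPM in overexpressor myotubes, with 0.229, 0.228 and 0.262 CPM in knockout myoblasts and 0.0655, 0.0315 and 0 CPM in knockout myotubes. Control myotubes stood alone, and overexpressor myotubes were at the floor of detection. Igf1 (chr10:87858265-87937042) encodes the growth factor that promotes myoblast differentiation and muscle growth. Igf1 was at 15, 10.9 and 10.3 CPM in control myoblasts and 66.4, 65.5 and 78.8 CPM in control myotubes. Igf1 in the clones was at 0.0205, 0 and 0.0481 CPM in overexpressor myoblasts and 1.61, 1.16 and 3.1 CPM in overexpressor myotubes, with 6.39, 6.66 and 6.77 CPM in knockout myoblasts and 8.24, 5.63 and 5.75 CPM in knockout myotubes. Overexpressor myoblasts were at the floor, whereas knockout myoblasts and myotubes overlapped each other. Igfbp4, which binds IGF1, was higher in myotubes than in myoblasts of all 3 lines, in control from 10.6 ± 0.681 to 218.5 ± 40.3 CPM, in the overexpressor from 1.25 ± 0.292 to 5.38 ± 0.339 CPM and in the knockout from 5.48 ± 0.214 to 18.7 ± 2.55 CPM (SD, n = 3). The secreted carbonic anhydrase Car6 was at or under 3 counts in every myoblast library and at 87.6, 69.8 and 82.3 CPM in control myotubes. Of the 16 other genes on the hormone list, 10 were at least 2-fold higher in control myotubes than in the myotubes of both clones. Of all 14483 genes at 1 CPM or more in any group, 7.28% were at least 2-fold higher and 6.98% at least 2-fold lower in control myotubes than in both clones, which is the share to set beside this and the other list counts at that limit.

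The stress and amino acid group held 8 members, which belong to the integrated stress response or the amino acid supply it drives. They summed to 193.4 CPM in control myoblasts, 1593 CPM in control myotubes, 134.8 CPM in overexpressor myotubes and 118.9 CPM in knockout myotubes. Trib3 (chr2:152337422-152344032) encodes a pseudokinase that feeds back on the pathway. Trib3 was at 4.32, 5.05 and 4.6 CPM in control myoblasts and 315, 315 and 274 CPM in control myotubes. Trib3 values in the clones were 6.08, 5.48 and 5.18 CPM in overexpressor myoblasts and 12.4, 15.2 and 11 CPM in overexpressor myotubes, with 10.9, 8.12 and 6.94 CPM in knockout myoblasts and 6.31, 6.76 and 6.45 CPM in knockout myotubes. Ddit3 (chr10:127290774-127296288) encodes CHOP, a transcription factor of the same response. Ddit3 was at 10.9, 13 and 10.7 CPM in control myoblasts and 129, 131 and 134 CPM in control myotubes. For Ddit3, the clones had 10.7, 11.9 and 10.7 CPM in overexpressor myoblasts and 8.25, 11.7 and 8.18 CPM in overexpressor myotubes, with 21, 18.3 and 19.2 CPM in knockout myoblasts and 16.8, 15.3 and 14.6 CPM in knockout myotubes. For both genes knockout myoblasts were above control myoblasts in every library. No myotube library of either clone overlapped the control myotubes, a gap that the rule required of the means. Slc7a11, the cystine transporter, and Cth, which makes cysteine from cystathionine, belong to the sulfur amino acid supply. Slc7a11 was at 1.62, 1.13 and 1.25 CPM in control myoblasts and 22.2, 21.8 and 25.1 CPM in control myotubes. The clones' Slc7a11 levels were 0.76, 1.05 and 0.626 CPM in overexpressor myoblasts and 0.97, 0.872 and 1.55 CPM in overexpressor myotubes, with 2.98, 3.08 and 2.47 CPM in knockout myoblasts and 0.491, 0.299 and 0.36 CPM in knockout myotubes. Knockout cells started above control and ended below the overexpressor. Vldlr, a lipoprotein receptor that the same response can induce, went from at most 0.755 CPM in control myoblasts to 57.1, 48.1 and 54.8 CPM in control myotubes, and was at or under 3 counts in every library of overexpressor myoblasts and of both knockout groups. The remaining members were Pck2 and Aldh1l2, enzymes of the mitochondrion, and Ero1l, an oxidase of the endoplasmic reticulum.

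A wider list of 35 genes of the integrated stress response was drawn up after these members had been seen, so it is a description only. It held 9 members (Adm2 besides the 8), and 18 of the 26 others were at least 2-fold higher in control myotubes than in the myotubes of both clones, with none at least 2-fold lower than both. Atf4 was at 1044 CPM in control myotubes against 435.9 and 424.6 CPM in overexpressor and knockout myotubes (means of 3 libraries). The 26 genes summed to 8871 to 9499 CPM in the control myotube libraries and 3621 to 4244 CPM in those of both clones. In myoblasts they summed to 2330 to 2455 CPM in control, 2509 to 2700 CPM in the overexpressor and 3753 to 3863 CPM in the knockout.

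**Figure D2:**
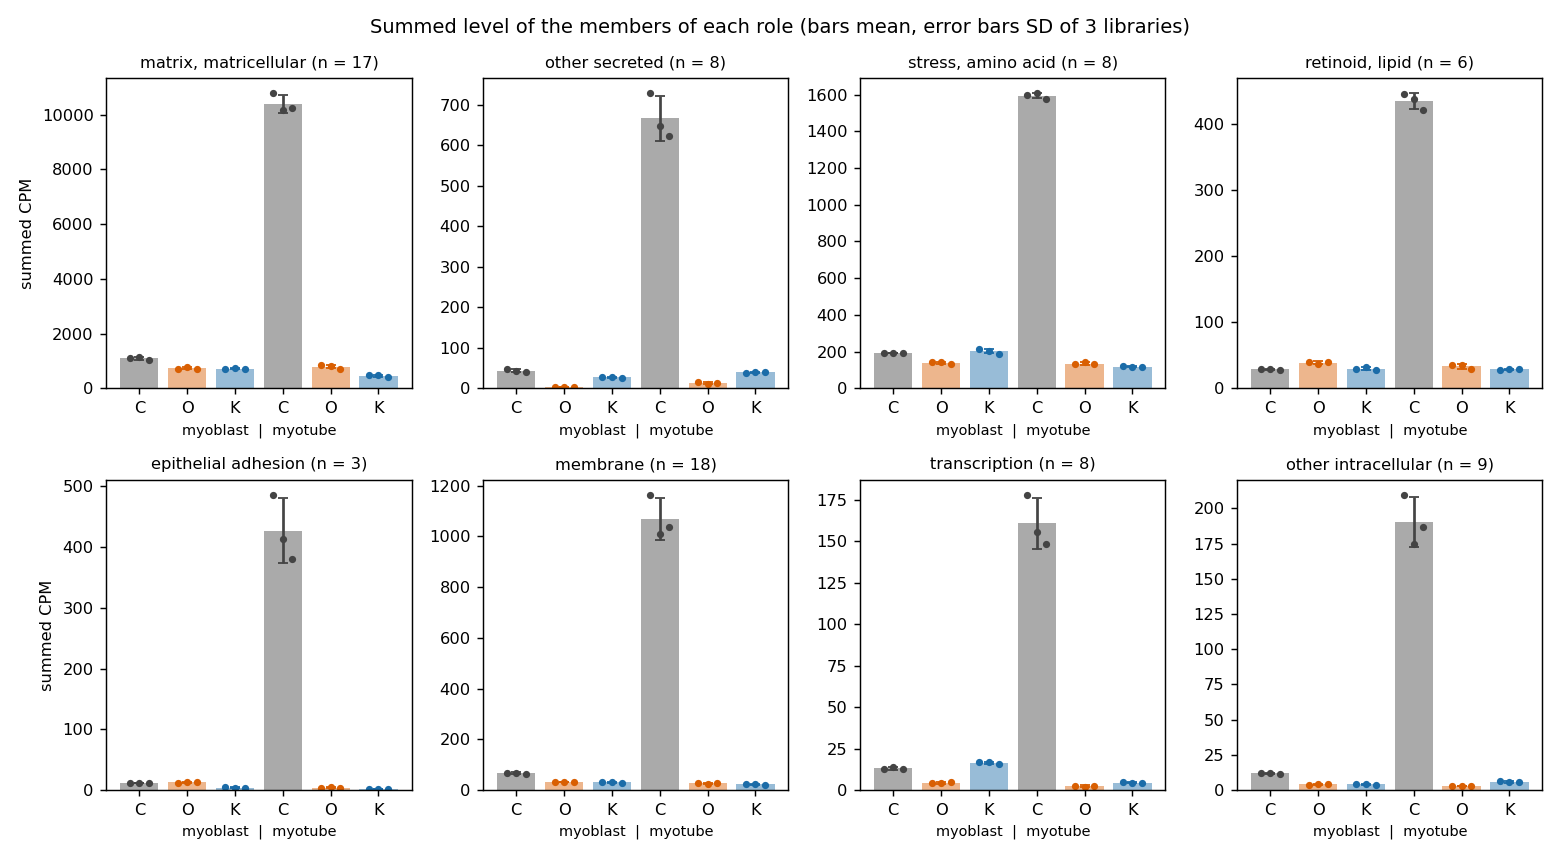
Summed CPM of the members of each of the 8 role groups, as the mean (bar) and SD (error bar) of 3 libraries, with each library as a point, for control (C), overexpressor (O) and knockout (K) myoblasts and myotubes. In every group the control myotube bar is the tallest, from 160.6 CPM for transcription to 10406 CPM for the matrix. The rule required this of each member against control myoblasts and the clones' myotubes.

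Promoter sequence was compared because several of these genes are known targets of ATF4, which binds composite sites called amino acid response elements. RefSeq promoters (GRCm38.p6, 250 bases before to 50 after a start) were found for 50 of the 77 members and for 11509 of the genes tested. The motif TGATGNAA, added after the members had been seen and searched on both strands, was in the promoters of 7 of 50 members (14.0%) and of 2.84% of all 11509 genes. The 7 were Slc7a11, Pck2, Trib3, Vldlr, Avil, Pdzd7 and Pi16. The 250 bases before the start are shown for 4 of them whose match lies upstream of the annotated gene, with matches to this motif in capitals.

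Slc7a11: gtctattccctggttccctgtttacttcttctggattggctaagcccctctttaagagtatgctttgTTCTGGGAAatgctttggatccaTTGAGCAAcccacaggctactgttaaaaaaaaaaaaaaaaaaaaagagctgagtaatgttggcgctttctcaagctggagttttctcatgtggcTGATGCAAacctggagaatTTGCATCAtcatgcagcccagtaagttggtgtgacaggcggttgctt
Pck2: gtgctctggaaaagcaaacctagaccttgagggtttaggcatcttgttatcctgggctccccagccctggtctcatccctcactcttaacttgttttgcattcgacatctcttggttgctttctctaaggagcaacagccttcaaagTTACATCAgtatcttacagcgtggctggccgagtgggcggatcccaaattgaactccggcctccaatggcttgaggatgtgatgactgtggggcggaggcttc
Avil: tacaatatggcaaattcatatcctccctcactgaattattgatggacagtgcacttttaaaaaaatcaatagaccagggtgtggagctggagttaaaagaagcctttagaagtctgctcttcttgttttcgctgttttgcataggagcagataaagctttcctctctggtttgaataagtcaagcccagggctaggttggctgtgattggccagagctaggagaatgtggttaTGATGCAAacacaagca
Pdzd7: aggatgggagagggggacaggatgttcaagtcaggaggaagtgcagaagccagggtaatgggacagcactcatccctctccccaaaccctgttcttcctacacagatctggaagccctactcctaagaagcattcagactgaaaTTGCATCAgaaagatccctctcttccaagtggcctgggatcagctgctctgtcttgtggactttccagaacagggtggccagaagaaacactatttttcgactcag

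They are at chr3:50443614-50443863 (minus strand), chr14:55540016-55540265 (plus), chr10:127000459-127000708 (plus) and chr19:45045773-45046022 (minus). Slc7a11 holds a pair of matches facing each other, and its first 2 runs of capitals are a STAT match and a C/EBP match. Avil, an actin-binding protein best known from sensory neurons, has its match just before the start. Pck2 and Pdzd7 carry theirs on the other strand, farther from the start. None of these matches is a measured binding site.

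The other motifs searched were the STAT motif TTCNNNGAA (8.0% of members with a promoter, 8.31% of all genes), the AP-1 motif TGANTCA (14.0% and 6.82%), the C/EBP motif TTGCNNAA (14.0% and 10.13%), the E-box CANNTG, bound by MYOD1 and MYOG (78.0% and 68.32%), the CRE TGACGTCA (2.0% and 3.38%) and the TATA box TATAAA (10.0% and 9.47%), and matches to different motifs may overlap. The paired glucocorticoid receptor motif was in 0.0% of member promoters and 0.03% of all. Member promoters held a median of 8.5 CG dinucleotides and 56.8% GC, against 15 and 59.4% for all genes. Angpt4, a secreted angiopoietin, and Igfbp4 show a TATA box in the position usual for a start site, in capitals.

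Angpt4: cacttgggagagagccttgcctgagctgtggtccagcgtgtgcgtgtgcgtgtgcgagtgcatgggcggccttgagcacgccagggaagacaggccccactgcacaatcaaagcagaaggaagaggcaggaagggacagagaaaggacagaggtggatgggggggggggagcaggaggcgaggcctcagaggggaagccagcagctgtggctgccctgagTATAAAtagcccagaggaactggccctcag
Igfbp4: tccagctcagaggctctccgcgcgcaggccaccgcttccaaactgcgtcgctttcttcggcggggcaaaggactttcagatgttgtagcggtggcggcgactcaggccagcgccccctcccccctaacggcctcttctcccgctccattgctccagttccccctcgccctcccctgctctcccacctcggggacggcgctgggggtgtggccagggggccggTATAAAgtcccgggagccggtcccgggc

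These are at chr2:151910957-151911206 and chr11:99040994-99041243, both on the plus strand.

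Retinoid, alcohol and lipid metabolism held 6 members, which summed to 434.7 CPM in control myotubes, 33.4 CPM in overexpressor myotubes and 29.1 CPM in knockout myotubes. Crabp2, a carrier that brings retinoic acid to its receptor, made up most of these counts. Crabp2 was at 14.4, 15.3 and 14 CPM in control myoblasts and 267, 274 and 272 CPM in control myotubes. Crabp2 in the clones was at 36.1, 31.9 and 35.6 CPM in overexpressor myoblasts and 28.6, 29.3 and 24.1 CPM in overexpressor myotubes, with 20.8, 21.7 and 19.1 CPM in knockout myoblasts and 16, 17 and 16.1 CPM in knockout myotubes. It was above control in every myoblast library of both clones and did not go up in either on differentiation. Aldh1a1, which makes retinoic acid, had 0 counts in control and overexpressor myoblasts and was at 7.81, 7.4 and 7.97 CPM in control myotubes. Akr1b7, an aldose reductase relative, and Apobr, an apolipoprotein B receptor, were higher in myotubes than in myoblasts of both clones: Akr1b7 by at least 1.96-fold in the overexpressor (adjusted p = 0.000607, edgeR) and at least 12.9-fold in the knockout (adjusted p = 2.44e-08), and Apobr by 2.05 (adjusted p = 5.83e-07) and 1.19 (adjusted p = 0.000407) on the log2 scale.

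The epithelial adhesion group held 3 members: Cdsn, or corneodesmosin, Ppl, or periplakin, and Perp, a desmosomal protein induced by p53. Cdsn was at 7.14, 7.81 and 7.27 CPM in control myoblasts and 448, 382 and 344 CPM in control myotubes. Cdsn values in the clones were 10.5, 11.5 and 11.4 CPM in overexpressor myoblasts and 2.69, 3.12 and 2.04 CPM in overexpressor myotubes, with 4.67, 2.98 and 4.1 CPM in knockout myoblasts and 1.21, 1.07 and 1.18 CPM in knockout myotubes. Control myotubes were far above the rest, and Cdsn went down on differentiation in both clones. Perp had 0 counts in knockout myotubes and 22.5, 18.4 and 22.3 CPM in control myotubes. The 7 other genes on the epithelial marker list summed to 13.9 to 15.6 CPM in control myotubes, 9.16 to 10.3 CPM in overexpressor myotubes and 3.1 to 4.57 CPM in knockout myotubes. In myoblasts their sums were 59.8 to 60.4 CPM in control, 182.48 to 204.35 CPM in the overexpressor and 11.35 to 15.15 CPM in the knockout. The defining marker Epcam had no count in any library, and the part of epithelial-type cells in these 3 members was not tested.

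The 18 membrane proteins summed to 1070 CPM in control myotubes, 25.8 CPM in overexpressor myotubes and 22.8 CPM in knockout myotubes. Scara5 (chr14:65666403-65764826), a receptor that takes up ferritin, was under 1 CPM in every control myoblast library. Scara5 was at 0.162, 0.103 and 0.142 CPM in control myoblasts and 307, 203 and 222 CPM in control myotubes. For Scara5, the clones had 1.36, 1.23 and 1.324 CPM in overexpressor myoblasts and 0.328, 0.442 and 0.483 CPM in overexpressor myotubes, with 0.481, 0.474 and 0.393 CPM in knockout myoblasts and 4.05, 4.59 and 3.36 CPM in knockout myotubes. It went down with differentiation in the overexpressor and up in the knockout, and stayed under 5 CPM in both clones. None of the 7 other iron genes above 1 CPM was at least 2-fold higher in control myotubes than in both clones. Trabd2b, a membrane protease that cleaves Wnt proteins, was at 459.6 ± 5.84 CPM in control myotubes against 19.2 ± 1.4 and 14.6 ± 0.834 CPM in overexpressor and knockout myotubes (SD, n = 3). Slc6a2, the noradrenaline transporter, had 0 counts in overexpressor myoblasts and was at 72.9, 60.8 and 59.7 CPM in control myotubes. The calcium pump Atp2a3, the ATP-gated channel P2rx3 and the drug exporter Abcb1a were at 69.5, 28.7 and 15.5 CPM in control myotubes and at most 1.17 CPM on average in the myotubes of either clone.

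The 8 transcription factors and cofactors summed to 160.6 CPM in control myotubes, 2.27 CPM in overexpressor and 4.49 CPM in knockout myotubes. Klf15, a factor that glucocorticoids induce in muscle, was at 6.84, 7.32 and 6.4 CPM in control myotubes and at or under 3 counts in all 15 other libraries. Of the 16 other glucocorticoid-responsive genes above 1 CPM, 3 were at least 2-fold higher and 2 at least 2-fold lower in control myotubes than in both clones. Bnc1, or basonuclin 1, was at 7.4, 5.89 and 6.84 CPM in control myotubes and had 0 counts in all 12 libraries of the clones. Aff3, a nuclear protein of the AF4 family, fell on differentiation in both clones, in the overexpressor from 1.15 ± 0.257 to 0.329 ± 0.0158 CPM and in the knockout from 7.02 ± 0.182 to 1.72 ± 0.219 CPM (SD, n = 3). A further 9 intracellular proteins summed to 190.3 CPM in control myotubes, among them Avil at 80.2, 57 and 61.6 CPM and Gas7, which remodels actin, at 32.6, 29.5 and 31.9 CPM. Both were under 1 CPM in every library of the clones.

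**Figure D3:**
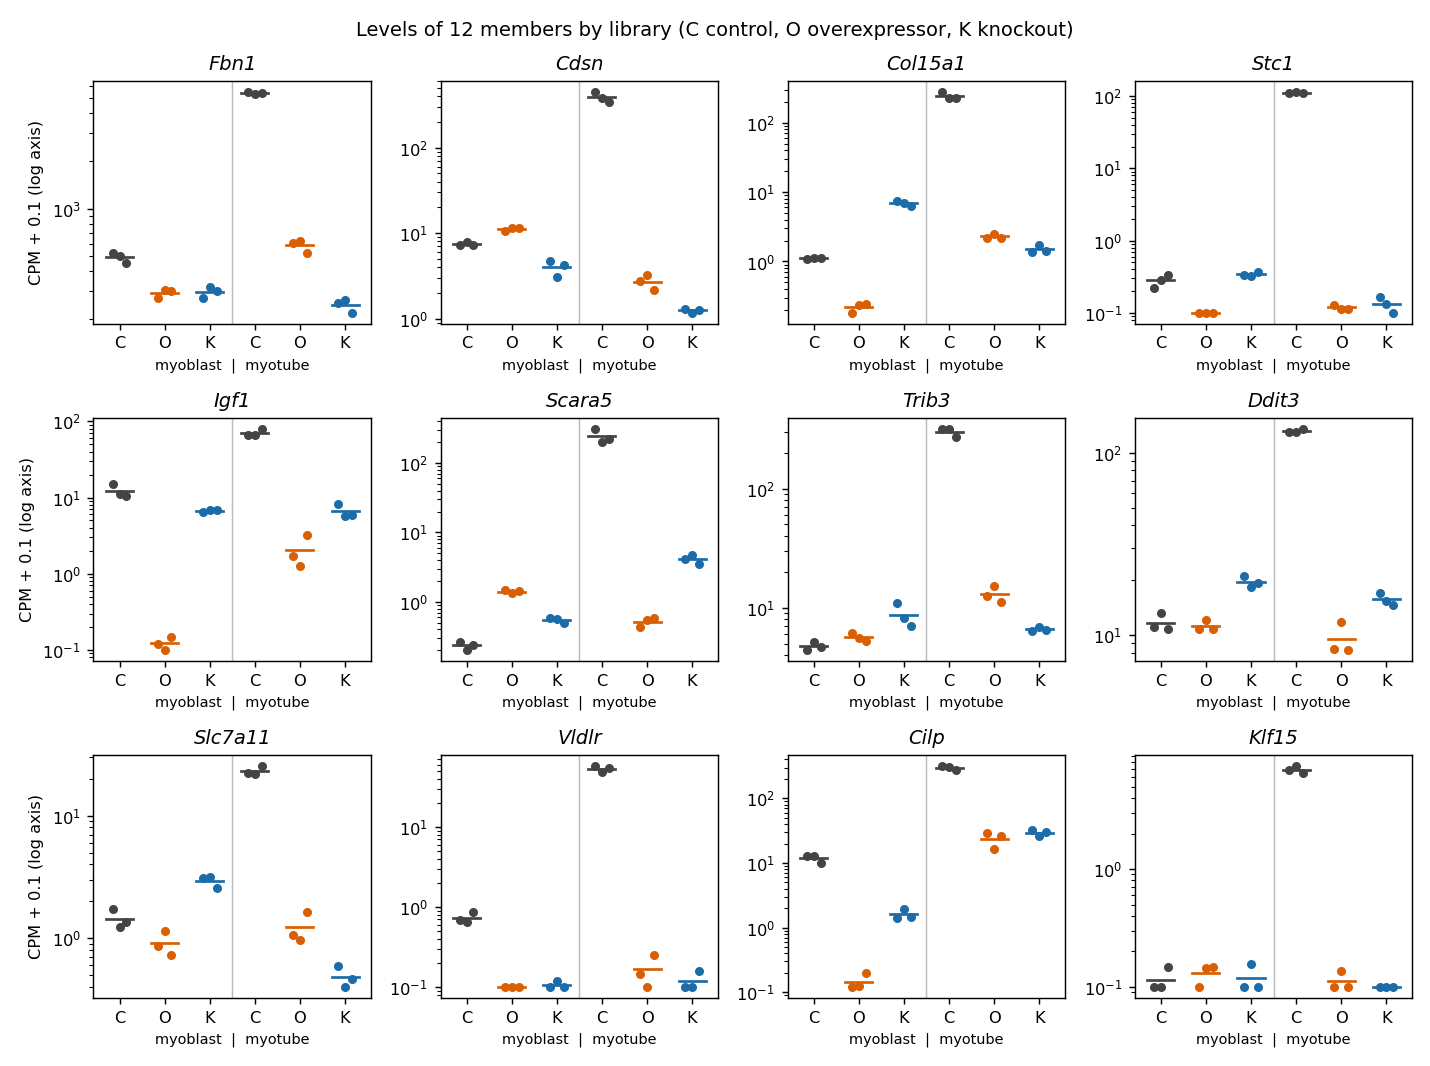
CPM + 0.1 on a log axis for 12 members in each library (points) with the group mean (line), for control (C), overexpressor (O) and knockout (K) myoblasts (left of the grey line) and myotubes (right). Control myotubes are the highest group in each panel, which the rule favoured. The clones differ from each other in several panels, among them Igf1, Scara5, Col15a1 and Slc7a11.

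Genes lay close to the limits of the selection on both sides. Just inside them were Pck2, with an induction of 4.06-fold, Itgb2, 8.13-fold above knockout myotubes, and Gm9913, at 5.0005 CPM in control myotubes. Just outside were Cygb, 7.93-fold above knockout myotubes, Tmem154, at 4.84 CPM, and Hectd2, with an induction of 3.94-fold. With limits of 16-fold against the clones in place of 8-fold, 48 genes remained.

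Myoblasts of the clones were not compared with control by the rule, although it capped the control myoblast level. Tests across 17912 genes (edgeR's quasi-likelihood test, Benjamini-Hochberg adjusted p below 0.05) put 45 of the 77 members lower and 8 higher in overexpressor than in control myoblasts, where 19.7% of all genes tested were lower and 20.7% higher. The median log2 fold change was -1.26 over the members, -1.33 with genes at the floor set to their bound, and 0.02 over all genes. In knockout against control myoblasts 38 members were lower and 16 higher, against 26.6% and 26.4% of all genes, with medians of -0.70 and 0.02. Both comparisons use the same control libraries. The rule kept genes low in each clone's myotubes relative to control, so genes low in a clone at both stages were favoured. The shares of members and of all genes are thus not on an equal footing. All 77 members passed the filter on low counts, but on these groups alone 67 and 69 would have passed.

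Among matrix members, The overexpressor myoblast libraries held 1, 1 and 4 counts of Cilp, which was below control (adjusted p = 1.73e-10) by at least 171-fold when overexpressor myoblast replicate C was left out, and 7.70-fold lower in knockout ones (adjusted p = 1.84e-08). Sod3 was 15.5-fold lower in the overexpressor (adjusted p = 8.56e-14) and 88.2-fold lower in the knockout (adjusted p = 1.48e-15). Col15a1 was 8.43-fold lower in the overexpressor (adjusted p = 1.04e-08) and 6.76-fold higher in the knockout (adjusted p = 3.69e-12). Fbn1 was lower in both, with log2 fold changes of -0.71 (SE 0.08) and -0.70 (SE 0.08). Igf1 was at least 167-fold lower in overexpressor myoblasts (adjusted p = 2.83e-09), and its change of -0.84 in the knockout (adjusted p = 0.0113) was lost without control myoblast replicate A (-0.667, adjusted p = 0.0591). Angpt4 was 123-fold lower in the overexpressor (adjusted p = 9.60e-12). Slc6a2 and Arap2, a GTPase-activating protein, were at least 21.8-fold and 17.8-fold lower there, and Arap2 and Bnc1 at least 18.7-fold and 9.99-fold lower in the knockout. Gas7, chosen after its values had been seen, had 184, 197 and 181 counts in control myoblasts and was lower in overexpressor (0, 5 and 0 counts, adjusted p = 3.81e-08) and knockout myoblasts (7, 0 and 7 counts, adjusted p = 3.66e-08).

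Fewer members were higher. Scara5 was 9.61-fold higher in overexpressor (adjusted p = 6.98e-08) and 3.31-fold higher in knockout myoblasts (adjusted p = 0.000576), and Crabp2 was 2.37-fold and 1.41-fold higher. Prg4, or lubricin, had a log2 fold change of 2.60 in the overexpressor (adjusted p = 1.72e-08) and of -1.24 in the knockout (adjusted p = 0.00038). The 9 members on the wider stress response list were mixed in knockout myoblasts, with 5 higher and 4 lower (Pck2, Ero1l, Vldlr and Adm2) than in control. Of all genes 26.4% were higher and 26.6% lower there. In overexpressor myoblasts 7 of the 9 were lower and 0 higher, against 19.7% and 20.7% of all genes. The lower call of Pck2 in the knockout was lost without control myoblast replicate C (adjusted p = 0.0517) or knockout myoblast replicate C (adjusted p = 0.0927), and that of Ero1l in the overexpressor without any 1 of 5 libraries (control myoblast replicates A, B and C and overexpressor myoblast replicates A and C, adjusted p = 0.0518 to 0.174). That of Slc7a11 in the overexpressor was lost without control myoblast replicate A (adjusted p = 0.147) or overexpressor myoblast replicates A (adjusted p = 0.0899) or C (adjusted p = 0.131). Among the 5 higher in the knockout were Trib3 by 0.91 (SE 0.145, adjusted p = 3.72e-05), Ddit3 by 0.78 (SE 0.11, adjusted p = 9.47e-06) and Slc7a11 by 1.11 (SE 0.21, adjusted p = 0.000212), while Trib3 did not pass in the overexpressor (0.30, adjusted p = 0.119). Tested directly, overexpressor myoblasts were lower than knockout myoblasts in 33 members and higher in 16, against 26.9% and 25.7% of all genes, with medians of -0.39 and -0.02. On these groups alone 53 of the 77 would have passed the filter on low counts. Trib3 (-0.61, adjusted p = 0.00151) and Ddit3 (-0.80, adjusted p = 7.48e-06) were among the 33. The wider stress response list, drawn up after the members had been seen, held 26 other genes. Of these, 11 were higher and 6 lower in overexpressor than in control myoblasts, against 20.7% and 19.7% of all genes. In knockout against control myoblasts 19 were higher and 2 lower, against 26.4% and 26.6% of all genes.

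**Figure D4:**
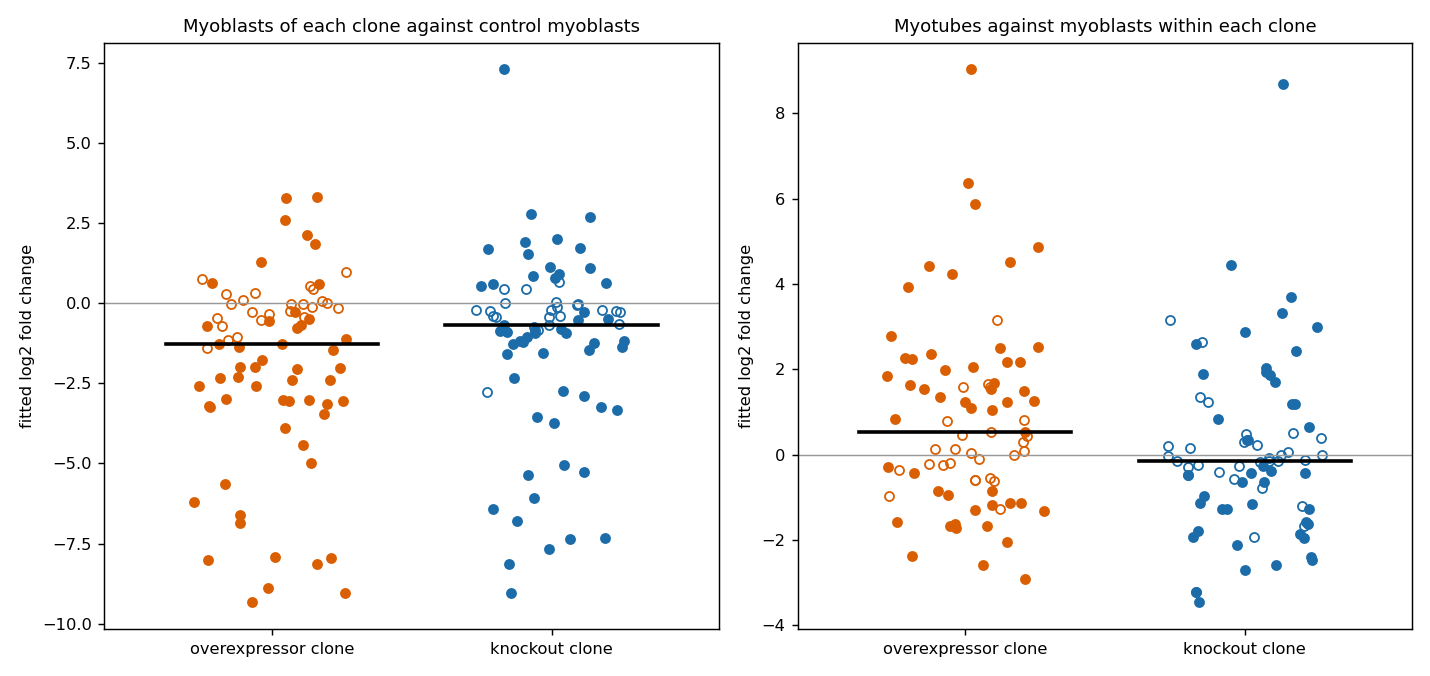
Fitted log2 fold change of each of the 77 members (points, filled where adjusted p is below 0.05, with the median as a black line) in myoblasts of each clone against control myoblasts (left) and in myotubes against myoblasts within each clone (right). On the left the medians lie below 0 (-1.26 and -0.70), and on the right the points spread to both sides of 0 (medians 0.53 and -0.16). The rule had capped each clone's myotube level, which favoured genes low in a clone at both stages.

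Differentiation inside each clone shares no library with the other clone or with control. The rule capped the level in each clone's myotubes, however, so the myotube side of each comparison was used to choose the members. In the overexpressor 32 members rose and 19 fell from myoblasts to myotubes, against 29.8% and 33.0% of all genes, and when only these 2 groups were fitted 21 rose. On these 2 groups alone 53 of the 77 would have passed the filter, so the others entered through control myotubes, which the rule chose as high. The median log2 fold change was 0.53 (0.14 with genes at the floor set to their bound) and -0.02 over all genes. In the knockout 18 members rose and 26 fell, against 29.8% and 35.6% of all genes, with medians of -0.16 and -0.075, and 57 of the 77 would have passed the filter on these groups alone. Without normalization beyond library totals the median over all genes in the knockout was -0.243, and the share of higher among all called genes was 34.0% in place of 45.5%. Both clones gave a rise in 8 members, Cilp, Igfbp4, Apobr, Elmo1, Adgrg2, Akr1b7, Itgb2 and Gm9913, and a fall in 7, Timp3, Htra1, Pck2, Cdsn, Ero1l, Aff3 and Greb1, where 18.8% of all genes tested rose and 20.6% fell in both. Cilp was 19.5-fold higher in knockout myotubes than in knockout myoblasts, and in the overexpressor at least 348-fold higher when myoblast replicate C, with 4 counts, was left out. Timp3 fell by 2.91 (SE 0.13) and by 1.13 (SE 0.13) on the log2 scale, and Cdsn fell by 2.03 (SE 0.15) and by 1.59 (SE 0.175) (the largest of these 4 adjusted p-values was 6.20e-07). In control the rule required all of them to rise.

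The difference between the clones' responses was tested directly and passed for 37 members, 26 with the higher log2 change in the overexpressor and 11 with the higher one in the knockout, against 24.3% and 22.4% of all genes. With library totals alone as the scaling these shares of all genes were 28.8% and 17.7%. On these groups 65 of the 77 would have passed the filter, and the rule capped the myotube level of both clones. Of all genes tested 6.08% passed in opposite directions within the clones with a difference that passed, and some members did. Col15a1 rose by 4.23 (SE 0.21) in the overexpressor and fell by 2.12 (SE 0.12) in the knockout, a difference of 6.35 (SE 0.235, adjusted p = 1.78e-12). Sod3 differed by 3.55 (SE 0.32, adjusted p = 9.14e-08) and Cth by 3.63 (SE 0.22, adjusted p = 5.80e-10) in the same sense. Scara5 fell by 1.57 (SE 0.22) in the overexpressor and rose by 3.32 (SE 0.20) in the knockout, a difference of -4.90 (SE 0.30, adjusted p = 8.92e-10), and Prg4 and Nos1, the neuronal nitric oxide synthase, behaved likewise. Slc7a11 fell by 2.71 (SE 0.24, adjusted p = 2.40e-08) in the knockout, and its response differed by 3.24 (SE 0.34, adjusted p = 5.88e-07).

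In myotubes the clones, both capped by the rule, were also compared with each other. Overexpressor myotubes were higher than knockout myotubes in 25 members and lower in 23, against 30.6% and 29.1% of all genes, with medians of -0.11 and 0.02, shares close to those of all genes, and 63 of the 77 would have passed the filter on these groups alone. Sod3 was higher by 6.07 (SE 0.20, adjusted p = 1.56e-13) and Fbn1 by 1.16 (SE 0.08, adjusted p = 2.52e-09) in the overexpressor. Perp was at least 7.49-fold higher there (adjusted p = 1.20e-06). Scara5 was 9.57-fold lower in the overexpressor (adjusted p = 1.47e-10), Nos1 3.52-fold (adjusted p = 3.15e-09), Igf1 3.34-fold (adjusted p = 4.36e-05) and Ddit3 1.66-fold (adjusted p = 5.42e-06).

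Markers of other cell types were read beside these results. Of the members, 4 (Pi16, Dpt, Scara5 and Col15a1) were among 19 markers of fibroblasts and fibro-adipogenic progenitors, the connective tissue cells of muscle. Of the 13 other markers above 1 CPM, 8 were at least 2-fold higher in control myotubes than in both clones (Pdgfrb, Ly6a, Cd34, Sfrp2, Sfrp4, Mfap5, Cd248 and Osr1). The 15 non-member markers summed to 2333 to 2505 CPM in control myotubes, 444.8 to 536.5 CPM in overexpressor myotubes and 541.1 to 578.9 CPM in knockout myotubes. Their sum was 2173 to 2275 CPM in control myoblasts, and 1328 to 1595 CPM and 1272 to 1298 CPM in overexpressor and knockout myoblasts. The receptor Pdgfra was at 20.7, 10.2 and 17.6 CPM in control, overexpressor and knockout myotubes, and Dpp4 was under 0.1 CPM in all groups. The part of such cells in the members' levels was not tested. On the collagen and proteoglycan list, 10 of the 16 genes that were not members were at least 2-fold higher in control myotubes than in both clones, and their sums were 44572 to 45766 CPM in control myotubes, 8989 to 10765 CPM in overexpressor myotubes and 10493 to 12241 CPM in knockout myotubes. Smooth muscle and pericyte markers went the other way, with sums of 1952 to 2326 CPM in control myotubes, 5153 to 6623 CPM in overexpressor myotubes and 7502 to 8125 CPM in knockout myotubes, and 6 of the 9 above 1 CPM were at least 2-fold lower in control myotubes than in both clones, 1 higher. Endothelial markers summed to at most 3.3 CPM and leukocyte markers to at most 14.2 CPM in any library.

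In the genome 5 pairs of neighbouring members lay within 1 Mb of each other: Ccn3 and Enpp2, 84.9 kb apart with no coding gene between them, Enpp2 and Col14a1, 354.9 kb apart with 3, Avil and Ddit3, 269.8 kb apart with 16, Angpt4 and Trib3, 392.1 kb apart with 8, and Fbn1 and Gm9913, which overlap on opposite strands. The use of strand in counting is not stated, and 40 members are overlapped by an annotated gene on the opposite strand, so the counts of these, Gm9913 included, are uncertain.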

How the data were processed

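The series holds 18 libraries of polyadenylated RNA in 1 table of raw read counts per gene, as deposited by the authors (a deposited variance-stabilized table was not used). STAR 2.7.9a, featureCounts (Subread 2.0.3), FastQC 0.11.7, DESeq2 1.32.0 and the mm10 build are named in the submitters' processing notes, and strand use and annotation release are not given in the sources used here. CPM was computed as the count divided by the library's total, without further scaling. Tests used edgeR 4.0.16 in R 4.3.3 (TMM, filterByExpr, robust quasi-likelihood fit of all 18 libraries and 6 groups, Benjamini-Hochberg adjustment over 17912 genes, threshold 0.05) and were tested on simulated data. Tested genes held at least 99.973% of each library's counts. Group comparisons in myoblasts, within each clone, between the clones and of their responses were tested, 7 in all. Alternatives were DESeq2 1.42.0, other size factors, no filter, only the groups compared, a replicate block, a 2-fold minimum and each library left out. For single genes only the other size factors, the replicate block and the libraries left out were read. A group with at most 3 counts in each library was at the floor, and folds against it are lower bounds, from that floor per library. Coordinates and overlaps are from GENCODE vM21 (GRCm38).

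The members and lists were chosen with earlier results of these data known. Named genes were the 24 members with the highest control myotube CPM and every member on a list. The 3 highest and 3 lowest past the threshold in each clone's myoblasts against control were added. So were the 3 genes nearest the limits on each side and members whose responses went opposite ways in the clones. Tmem86a, Car9 and Atp6v0d2 came under this rule but are not described above. With a library left out, calls were lost for Car9 within the overexpressor, Tmem86a within the knockout and Atp6v0d2 in knockout against control myoblasts. Other genes named, the sorting by role, the wider stress list and the TGATGNAA motif were chosen after their values were seen. Protein sequences and 27 promoters were not analysed here.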

Additional observations from a re-analysis of the deposited data

Results flagged for a closer look

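In 17 members the differentiation response passed in opposite directions in the clones and the difference of the responses passed too (edgeR's quasi-likelihood test, log2 scale, overexpressor minus knockout). These were 22.1% of the members, and 6.08% of all 17912 genes did the same. The rule had capped the myotube level of both clones, so these shares are not on an equal footing. On these groups alone 65 of the 77 members would have passed the filter on low counts. Within the overexpressor 53 and within the knockout 57 would have passed it. Of the 17 members, 11 were up in the overexpressor and down in the knockout. The difference was 6.86 for Slc6a2, 6.35 for Col15a1, 4.04 for Adm2, 3.63 for Gpm6b, 3.63 for Cth, 3.55 for Sod3, 2.16 for Prelp, 1.93 for Ccn5, 1.87 for Hopx, 1.37 for Spon2 and 1.29 for Aldh1l2. Slc6a2 had 0 counts in overexpressor myoblasts, so its fitted value is no bound (6.17 without overexpressor myotube replicate C), and Gpm6b was at 4.23 without knockout myotube replicate A. In the other 6 the order was the opposite, with -4.90 for Scara5, -3.73 for Prg4, -3.33 for Gng4, -3.00 for Col23a1, -2.52 for Enpp2 and -1.94 for Nos1.

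Calls of single genes were read under DESeq2's size factors, library totals, the replicate block and each library of the groups compared left out. The other alternatives were not read for single genes. All 17 differences kept their call under each of those read. The calls within both clones held under each alternative read for 8 members: Sod3, Aldh1l2, Scara5, Col15a1, Gpm6b, Prg4, Cth and Nos1. For the other 9 a call within 1 clone, or within both for Gng4, was lost when a single library was left out, and for 4 of them also under another scaling or the replicate block. With 1 library left out, the adjusted p in the knockout reached 0.132 for Slc6a2 (without myoblast replicate B), 0.114 for Adm2 (without myoblast replicate C), 0.0797 for Ccn5 (without myotube replicate C), 0.208 for Hopx (without myotube replicate A), 0.0883 for Spon2 (without myotube replicate A), 0.115 for Enpp2 (without myoblast replicate C) and 0.0565 for Gng4 (without myotube replicate C). With DESeq2's size factors the knockout calls of Spon2 (-0.144, adjusted p = 0.25), Ccn5 (-0.258, adjusted p = 0.116) and Hopx (-0.51, adjusted p = 0.0962) were lost, and that of Enpp2 was lost with library totals (adjusted p = 0.101) and with the replicate block (adjusted p = 0.0602). In the overexpressor it reached 0.0993 for Prelp (without myotube replicate A), 0.082 for Col23a1 (without myoblast replicate B) and 0.0714 for Gng4 (without myoblast replicate C).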

How the results depend on the processing

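With limits of 16-fold against each clone 48 genes met the rule in place of 77, with 4-fold limits 102, with 0.01 or 1 CPM added 79 or 58, and with a library left out 73 to 80. The members higher in knockout than in control myoblasts fell from 16 to 10 with a fitted fold of at least 2, and those higher in overexpressor than in knockout myotubes from 25 to 16. The members that rose in the overexpressor numbered 21 in place of 32 when only the groups compared were fitted. The other counts of members called stayed within 1.5 times the reported ones under each alternative. Single genes were read under DESeq2's size factors, library totals, the replicate block and each library of the groups compared left out, not under the other alternatives. Of 257 tests of single genes, 230 kept direction and call under all of these, 27 lost the call under at least 1 and none reversed. The cause was not tested.

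With the replicate block (letters A, B and C) the higher and lower members numbered 8 and 44 in overexpressor myoblasts against control, 16 and 37 in knockout myoblasts against control, 16 and 32 between the clones' myoblasts, 30 and 20 within the overexpressor, 17 and 25 within the knockout, 25 and 23 between the clones' myotubes, and 26 and 11 for the difference of responses. Same-letter libraries did not visibly deviate together: over 45 pairs the correlation ran from -0.36 to 0.26, with 4 pairs over 0.1. The mean was -0.03 for same-letter and 0.01 for other-letter pairs, and 0 of 18 libraries correlated best with their own letter. Deviations were taken from means of 3 libraries, so a small shared effect could be missed. Members near 1 CPM or below rest on few counts, so folds between their low groups are imprecise.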
